A study of Anopheles gambiae with 8 samples.

Results

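Among the genes of *An. gambiae* Sua 4.0 cells, 50 were moderately more abundant after 20-hydroxyecdysone (20E) than after ethanol (EtOH) in each of 4 pairs of libraries with the same replicate number. They were found among 6950 nuclear genes with a mean level of at least 5 CPM over the 8 libraries, of 13763 genes in the whole count table. CPM are counts scaled to the same total in each library, here the total over nuclear genes. For replicate numbers 1 to 4, the ratio of 20E to EtOH was taken as log2((20E CPM + 0.5)/(EtOH CPM + 0.5)), and a member had all 4 ratios between 0.6 and 2.0. The choice set aside AGAP008596, AGAP009844, AGAP004975, AGAP002163 and AGAP002165, but each of these 5 had a ratio outside the limits, so none was lost from the 50 by it. Choices on 3 pairs, given below, set them aside as well, which kept out AGAP009844 where pair 4 was not used. Because the members were chosen by their own response to 20E, their ratios, folds and fitted differences are descriptions of what was chosen and not tests of it. The same limits with the sign turned gave 53 genes, used below only where the members are set against another group of moderate size.

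Sua 4.0 is an established *An. gambiae* cell line with properties of hemocytes, the mosquito blood cells. Cells were given 20E, at 1 μM by the study's methods, or the solvent alone, and RNA was collected 24 h later. The study describes 4 independent biological replicates, and each treatment had 4 libraries. Neither the labels nor the paper say which libraries were treated together, and each replicate number is taken here to mark an experiment. Both treatments had the same line, no other agent and the same solvent, which is 10% ethanol in the labels and 100% ethanol in the methods. A single cell line is the only source of these cells, so the replicates are repeats of the culture experiment and not different animals. In bulk RNA of this kind, more cells that express a gene and more RNA of that gene per cell cannot be told apart.

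20E is the active form of the insect molting hormone, and in adult female mosquitoes it is made after a blood meal. It binds a heterodimer of the ecdysone receptor and ultraspiracle, which turns on early genes, many of them transcription factors, and these in turn act on a broader set of late genes. At a single late time the direct and the later responses cannot be told apart.

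Libraries held from 5569023 to 13820928 nuclear counts, lowest in replicate 1 of both treatments. Mitochondrial genes took 18.9%, 7.75%, 7.11% and 13% of all counts in 20E replicates 1 to 4 and 21.2%, 15.8%, 11.0% and 16.0% in EtOH replicates 1 to 4, a lower share after 20E in 4 of 4 pairs, and they were left out of the totals. HR4 (AGAP004693), a nuclear receptor of the ecdysone pathway, stood at 117 to 167 CPM after 20E and at 0.0828 to 0.361 CPM after EtOH, so the labels of all 8 libraries fitted the treatment. As genes known from mosquito hemocytes, prophenoloxidase PPO3 (AGAP004975) was at 68.6 to 115 CPM and PPO8 (AGAP004976) at 0.479 to 1.32 CPM after EtOH. Collagen IV (AGAP009200) was at 249 CPM in EtOH replicate 1 and at 6.04 to 12.4 CPM in the other EtOH libraries, so replicate 1 stood apart from the other EtOH libraries in this gene.

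The response of the 50 genes was close to a doubling. The mean of the 4 ratios ran from 0.71 to 1.56 on the log2 scale with a median of 1.04, which corresponds to folds of 1.64 to 2.95 with a median of 2.06. Within a gene the 4 ratios had a standard deviation of 0.07 to 0.70, with a median of 0.24 over the members. The limits of 0.6 and 2.0 capped this spread in advance. From the lowest to the highest ratio of a gene, the median range was 0.54 in the members and 0.52 over all measured genes. It was 0.51 in the genes chosen with the sign turned, so the members were no tighter than other genes. AGAP002509 had the tightest set, with ratios of 1.06, 1.10, 1.21 and 1.16 in pairs 1 to 4. AGAP001377 had the widest, with ratios of 0.76, 0.61, 1.95 and 1.83. The latter gene nearly touched both limits and was one of the weaker signals in the group, with 9 counts in its lowest library.

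Pairs 3 and 4 gave the higher ratios. The median ratio of the 50 genes was 0.95 in pair 1, 0.95 in pair 2, 1.18 in pair 3 and 1.12 in pair 4. Over all 6950 measured genes the median ratio was -0.00017, -0.02, 0.15 and 0.10 in the same order, so the whole distribution was also shifted upward in pairs 3 and 4 under this scaling. The highest of a gene's 4 ratios lay in pair 3 for 24 members and in pair 4 for 17, against 5 in pair 1 and 4 in pair 2. The lowest lay in pair 1 for 19 members and in pair 2 for 17, against 7 in each of pairs 3 and 4.

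**Figure D1:**
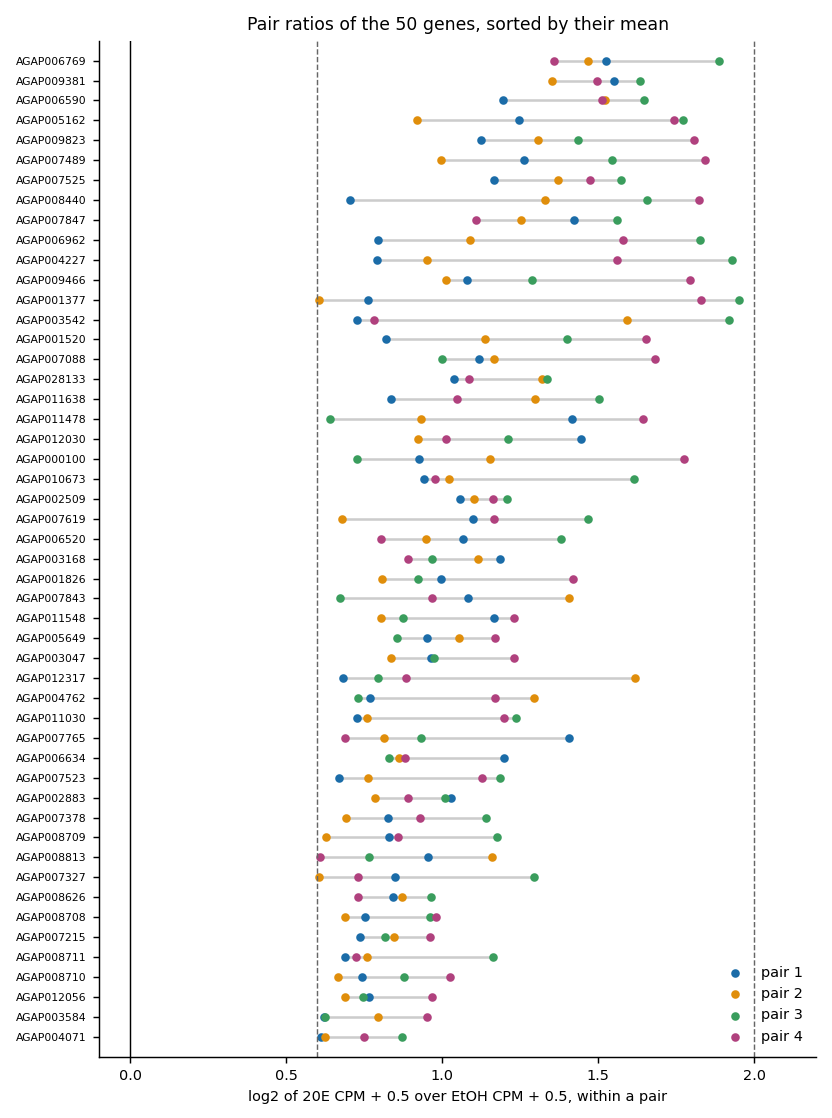
Log2 ratio of 20E to EtOH in each of the 4 pairs (points) for the 50 genes, sorted by their mean, with a grey line from the lowest to the highest ratio and dashed lines at the limits of 0.6 and 2.0. All points lie between the limits by construction, and pair 3 holds the highest ratio for 24 of the genes and pair 4 for 17.

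The limits cut through a continuous range of responses. The members just inside the lower limit were AGAP007327, AGAP001377 and AGAP008813, with lowest ratios of 0.604, 0.606 and 0.608, and the genes just outside it were AGAP002095, AGAP007333 and AGAP002123, with lowest ratios of 0.597, 0.591 and 0.591. At the upper limit, AGAP001377, AGAP004227 and AGAP003542 had highest ratios of 1.95, 1.93 and 1.92 and were kept, and AGAP009305, AGAP001419 and AGAP002341 had highest ratios of 2.02, 2.02 and 2.05 and were not. In all, 109 measured genes, counting any that were set aside, had 4 ratios of at least 0.6, and 59 of them had at least 1 ratio above 2.0.

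Only the pair whose ratio takes no part in a choice can give a reading that does not depend on it, apart from the minimum level, which was taken over all 8 libraries. When genes were chosen by the same limits on 3 pairs, the ratio in the pair left out was above 0 for most of them. With pair 1 left out, 86 genes were chosen and 74 of them (86.0%) had a ratio above 0 in pair 1, with a median of 0.76. With pair 2 left out, 84 of 96 genes (87.5%) were above 0, with a median of 0.63. Pairs 3 and 4 repeated the choice most closely.

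With pair 3 left out, 63 of 64 genes (98.4%) were above 0 with a median of 1.07, and with pair 4 left out, 64 of 65 (98.5%) with a median of 1.05. Among all 6950 genes the shares above 0 were 49.9%, 47.7%, 66.8% and 61.5% in pairs 1 to 4, the last pair of values being above an even split. The ratio fell within 0.6 to 2.0 for 58.1%, 52.1%, 78.1% and 76.9% of the chosen genes, against 6.16%, 4.50%, 9.51% and 8.81% of all measured genes. The genes within the limits were the same 50 members each time. The 4 readings thus share genes and libraries and are not separate repeats. Most of the genes that missed the limits were nearer to 0 or below it, namely 32, 45, 10 and 10 genes, and only 4, 1, 4 and 5 lay above 2.0. A moderate ratio in 3 experiments thus came with a higher ratio than that of the median gene in the remaining one, but the size of that ratio was smaller in pairs 1 and 2.

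**Figure D2:**
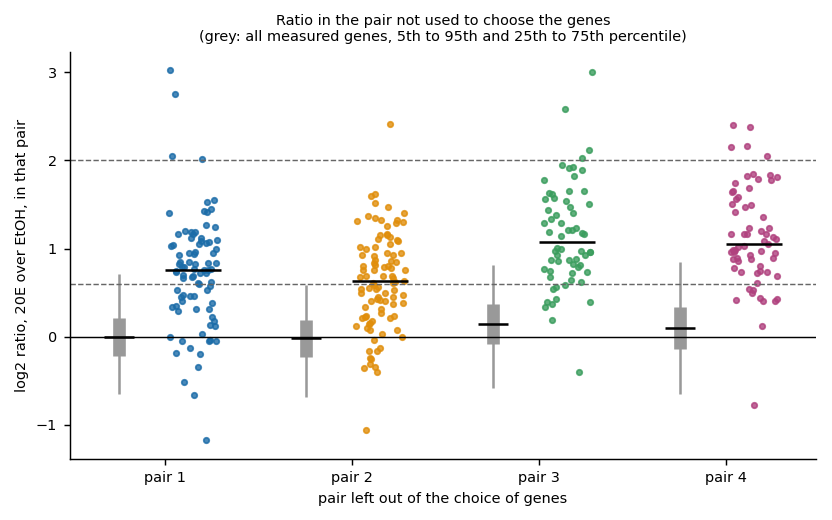
Log2 ratio of 20E to EtOH in the pair left out (y axis) for genes chosen on the other 3 pairs (coloured points, black line at their median), with all 6950 measured genes in grey (thin bar 5th to 95th percentile, thick bar 25th to 75th, black line at the median). The medians of the chosen genes are 0.76, 0.63, 1.07 and 1.05 for pairs 1 to 4, and fewer of them lie below 0 in pairs 3 and 4 than in pairs 1 and 2.

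Of the 50 genes, 13 appear in the study's own list of genes changed in these libraries, and that list gives a name to 10 of them. The other 40 are known here by identifier alone. Since the list was drawn from the same libraries, having a name is itself tied to the response, and it says nothing independent about the members. The 10 names fall to different functions, and no gene class defined by words in the names had more than 1 of them, so no gene class can be described. In the values that follow, sets of 4 are always in the order of replicates or pairs 1 to 4, and genes with related roles are given next to each other without being counted as a group. CPM are not scaled to gene length, so a level is compared between libraries and not between genes.

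AGAP007088 (2L, 42413501 to 42415480, AgamP4) encodes peptidyl-prolyl cis-trans isomerase B, also called cyclophilin B, which in vertebrates helps secreted proteins fold in the endoplasmic reticulum. It stood at 1206, 857, 505 and 816 CPM after 20E and at 555, 381, 253 and 254 CPM after EtOH. Every pair showed the higher level after 20E, with ratios of 1.12, 1.17, 1.0 and 1.68, but 20E replicate 3 lay below EtOH replicate 1, so the groups overlapped.

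AGAP007619 (2L, 48341477 to 48344512) encodes a cytosolic nonspecific dipeptidase, an enzyme that cleaves dipeptides into amino acids. It stood at 760, 704, 904 and 979 CPM after 20E and at 355, 439, 327 and 436 CPM after EtOH. The groups did not overlap, and the EtOH libraries were close to each other, with ratios of 1.10, 0.68, 1.47 and 1.17.

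AGAP003047 (2R, 31426492 to 31435204) encodes an ATP-dependent RNA helicase, a family of enzymes that unwind RNA. It stood at 572, 631, 364 and 504 CPM after 20E and at 293, 353, 185 and 214 CPM after EtOH, with ratios of 0.97, 0.84, 0.97 and 1.23. The lowest 20E library was above the highest EtOH library by a small margin. This is the only member whose span overlaps another gene with counts, AGAP003048 on the opposite strand, with 9082 counts over the 8 libraries against 30426 for the helicase. The libraries were stranded, but the strand setting of the counting is not given in the sources used here, so the part of the overlap in these counts was not tested.

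AGAP012030 (3L, 36690523 to 36700661) encodes mRpL21, a protein of the large subunit of the mitochondrial ribosome. It stood at 81.0, 117, 89.4 and 70.2 CPM after 20E and at 29.4, 61.2, 38.3 and 34.6 CPM after EtOH. The groups did not overlap, and the highest ratio of the 4 (1.44, 0.92, 1.21 and 1.01) was in pair 1. The share of counts from the mitochondrial genome was lower after 20E in the same 4 pairs. Every member was higher after 20E in all 4 pairs by the rule, so this holds for all 50 and is not particular to mRpL21. Whether the level of this gene and the mitochondrial share are related was not tested.

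AGAP007525 (2L, 47194890 to 47223805) encodes a homolog of coronin, a protein that binds actin filaments and takes part in their turnover. It stood at 131, 146, 92.8 and 167 CPM after 20E and at 58.2, 56.1, 30.9 and 59.7 CPM after EtOH. Replicate 3 was the lowest library in both treatments, yet it had the highest of the ratios, which were 1.17, 1.37, 1.57 and 1.47.

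AGAP004227 (2R, 52190093 to 52194254) encodes an ADP-ribosylation factor-like protein, of a family of small GTPases many of which act in membrane traffic. It stood at 267, 500, 638 and 441 CPM after 20E and at 154, 258, 167 and 149 CPM after EtOH. The groups stood apart by a small margin, with 20E replicate 1 just above EtOH replicate 2. The response was uneven, with ratios of 0.79 and 0.95 in pairs 1 and 2 and of 1.93 and 1.56 in pairs 3 and 4.

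AGAP007843 (3R, 1844560 to 1851026) encodes a diacylglycerol O-acyltransferase, which carries out the last step of triacylglycerol synthesis. It stood at 207, 288, 180 and 237 CPM after 20E and at 97.5, 108, 113 and 121 CPM after EtOH, with ratios of 1.08, 1.41, 0.67 and 0.97. The EtOH level was steady, and the spread of the ratio came mostly from the 20E libraries.

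AGAP009381 (3R, 31870518 to 31872069) is listed as a cellular retinaldehyde-binding protein, which in vertebrates carries a retinoid in the eye. It stood at 24.4, 38.5, 20.3 and 36.0 CPM after 20E and at 8.01, 14.8, 6.21 and 12.4 CPM after EtOH. With a mean ratio of 1.51 ± 0.12 (SD, n = 4), it had the second highest mean among the members and was steady from pair to pair, and its groups did not overlap. AGAP009466 (3R, 33978414 to 34000999) is listed as ABCG8, a transporter that in mammals moves sterols out of cells together with ABCG5.

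ABCG8 (AGAP009466) stood at 222, 159, 145 and 169 CPM after 20E and at 105, 78.6, 59.2 and 48.4 CPM after EtOH. The groups did not overlap, and the lowest EtOH library, replicate 4, went with the highest of the ratios, which were 1.08, 1.01, 1.29 and 1.79.

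AGAP007847 (3R, 1975248 to 1991158) encodes a dual specificity tyrosine-phosphorylation-regulated kinase, of a family that phosphorylates itself on tyrosine and its substrates on serine or threonine. It stood at 89.8, 241, 258 and 167 CPM after 20E and at 33.2, 101, 87.1 and 77.1 CPM after EtOH. Replicate 1 was the lowest library in both treatments, and its 20E level was below the EtOH level of replicate 2. The groups therefore overlapped although each pair showed a clear difference, with ratios of 1.42, 1.25, 1.56 and 1.11.

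The study's list gives 3 further members without a name. AGAP009823 (3R, 43805221 to 43816144) stood at 223, 278, 219 and 244 CPM after 20E and at 102, 112, 80.6 and 69.5 CPM after EtOH, with ratios of 1.12, 1.31, 1.43 and 1.81. Its 20E libraries were closer to each other than its EtOH libraries, and the gap between the groups was wide. AGAP002509 (2R, 22129049 to 22133349) stood at 302, 617, 451 and 310 CPM after 20E and at 145, 287, 195 and 138 CPM after EtOH. Both treatments moved together between replicates, so that the mean ratio was 1.13 ± 0.07 (SD, n = 4).

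AGAP011638 (3L, 30462307 to 30468319), which the list places under transcription, stood at 87.1, 212, 130 and 69.2 CPM after 20E and at 48.6, 86.0, 45.5 and 33.2 CPM after EtOH. The groups overlapped, since 20E replicate 4 lay below EtOH replicate 2. In pairs the level after 20E was higher each time, with ratios of 0.84, 1.30, 1.50 and 1.05.

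**Figure D3:**
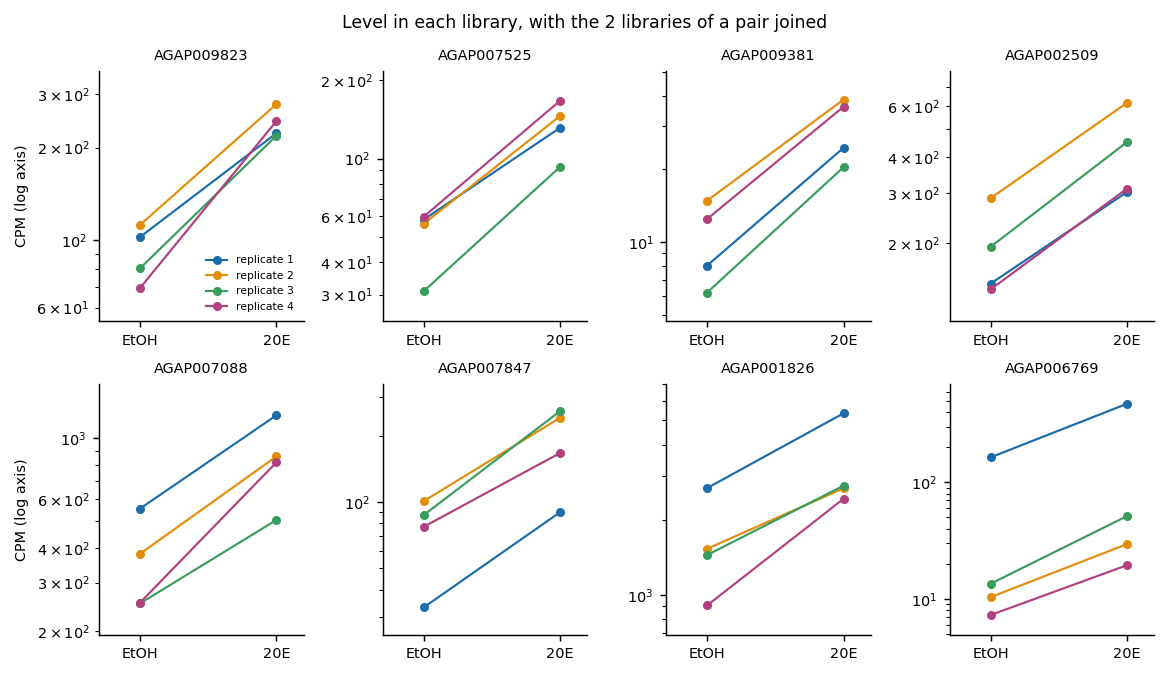
CPM on log axes after EtOH and after 20E for 8 of the genes, with the libraries of the same replicate number joined. All lines rise from EtOH to 20E and are close to parallel within most panels, while their heights differ between replicates, most of all for AGAP006769, whose replicate 1 lies at 164 and 472 CPM.

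Members without any name included some with the highest lowest ratio and some with the most counts. AGAP006769 (2L, 38064405 to 38069624) had the highest mean ratio, 1.56 ± 0.23 (SD, n = 4). It stood at 472, 29.5, 51.3 and 19.4 CPM after 20E and at 164, 10.3, 13.5 and 7.28 CPM after EtOH. Replicate 1 was far above the rest in both treatments, and its EtOH level exceeded the 20E level of the other replicates. Within pairs the ratios were 1.52, 1.47, 1.89 and 1.36, so the difference in replicate 1 was of the size seen in the others.

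AGAP006590 (2L, 34288135 to 34391778) was at 7.0, 11.0, 12.2 and 18.7 CPM after 20E and at 2.78, 3.49, 3.56 and 6.22 CPM after EtOH. Its groups did not overlap, and its ratios were 1.19, 1.52, 1.65 and 1.51. AGAP028133 (3L, 36683602 to 36686189) was at 16.0, 22.1, 13.3 and 15.8 CPM after 20E and at 7.52, 8.54, 4.97 and 7.18 CPM after EtOH, with ratios of 1.04, 1.32, 1.34 and 1.09. Both of these genes had few counts, 17 and 46 in their lowest libraries, and their ratios varied little between pairs.

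AGAP001826 (2R, 11116762 to 11163371), the member with the most counts for its whole span, was at 5344, 2673, 2737 and 2426 CPM after 20E and at 2677, 1529, 1443 and 906 CPM after EtOH. Replicate 1 was highest in both treatments, so that EtOH replicate 1 lay above 20E replicates 2 and 4, and the ratios were 1.0, 0.81, 0.92 and 1.42. AGAP012056 (3L, 37151982 to 37162785) was at 1888, 1871, 1692 and 1208 CPM after 20E and at 1110, 1160, 1009 and 618 CPM after EtOH. Here replicate 4 was the lowest library of both treatments, and the groups did not overlap.

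AGAP011478 (3L, 25038434 to 25049152) was at 1885, 684, 628 and 289 CPM after 20E and at 706, 358, 403 and 92.2 CPM after EtOH. Its level differed more between replicates than between treatments, and its ratios of 1.42, 0.93, 0.64 and 1.64 were also uneven. AGAP007523 (2L, 47149991 to 47187591) was at 507, 1129, 663 and 715 CPM after 20E and at 319, 665, 291 and 327 CPM after EtOH, with replicate 2 highest in both. AGAP005649 (2L, 18267307 to 18270472) was at 723, 515, 324 and 611 CPM after 20E and at 374, 248, 179 and 271 CPM after EtOH, with replicate 1 highest and replicate 3 lowest in both.

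The order of the replicates was thus often the same in both treatments. For genes with a wide range of EtOH levels this follows from the limits, which bound how far the ratios of a gene can differ. The highest EtOH library of a member exceeded its lowest by 1.19 to 62.7 times, with a median of 2.26, against a median of 1.70 over all measured genes and 2.13 in the 53 genes with the mirrored fall. In 29 of the 50 genes the log2 range among EtOH libraries was larger than the mean ratio of 20E to EtOH. A range over libraries and a mean ratio that the limits cap are unlike measures, so replicates and hormone are not ranked by this. In 12 genes the EtOH range was above 2 and in 17 it was 1 or less. Accordingly, every 20E library was above every EtOH library in 23 members, and the groups overlapped in 27. Such a separation with 20E higher was found in 2.85% of all measured genes, a share that cannot be weighed against the members', since they were chosen on the same ratios.

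Replicate 1 differed by more than 1 on the log2 scale from the mean of the other replicates in 14 members (28%) after EtOH and in 14 (28%) after 20E, against 11.9% and 13.5% of all measured genes. It was the higher one in both treatments for 18 members and the lower one in both for 25. The limits on the ratios force part of this agreement, and the same count was not taken over all measured genes. The differences of replicate 1 from the others ran from -4.64 to 3.92 after EtOH. The low end was AGAP012317, which together with AGAP000100 was picked out after its values were seen.

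AGAP012317 (3L, 40162985 to 40164361) was at 1.62 CPM in 20E replicate 1 and at 66.8, 89.3 and 45.3 CPM in the other 20E libraries. After EtOH it was at 0.818 CPM in replicate 1 and at 21.4, 51.2 and 24.3 CPM in the others. AGAP000100 (X, 1628900 to 1629785), the only member on the X chromosome, was at 9.16, 55.8, 56.6 and 264 CPM after 20E and at 4.58, 24.8, 33.9 and 76.7 CPM after EtOH. In both genes the range between experiments was wider than the difference between treatments.

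Counting error was small beside these differences. Of the 200 pair ratios of the 50 genes, 199 had an exact 95% counting interval above 0. Each ratio was chosen to be at least 0.6, so with counts of this size that number follows largely from the choice. It describes precision and is no support for the response. The exception was AGAP012317 in pair 1, with 9 counts after 20E and 5 after EtOH, a ratio of 0.68 and an interval of -0.75 to 2.91. In 6 members the lowest library held fewer than 30 counts, in 31 it held 100 or more, and the median over members was 254. These intervals cover counting error only, since fragments were counted without molecular identifiers.

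Whether the experiment enters the fit decided how many of the members were called. All 50 passed the expression filter. By the quasi-likelihood test of edgeR, with calls made at an adjusted p (Benjamini-Hochberg) of 0.1 or less, 8 of the 50 members were higher after 20E when the replicate number was not in the model, where 0.513% of the 8180 genes tested were called higher. Once that number was added as a block, all 50 were called, where 8.34% of the 8180 genes were called higher. DESeq2 without the block called 25 members, where 1.1% of the genes with an adjusted p were called higher. The members' counts stand beside the shares of all genes for reference only, because the choice of members used the same contrast.

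The 8 members called without the block were AGAP009823 (adjusted p = 0.00934 by edgeR), the dipeptidase AGAP007619 (0.0622), the acyltransferase AGAP007843 (0.0756), coronin AGAP007525, AGAP028133, mRpL21 AGAP012030 and AGAP011548 (0.0882 each) and the ARF-like AGAP004227 (0.0888). In each of them the groups did not overlap. AGAP011548, given here only because it was called, was at 29.6, 36.1, 35.6 and 33.3 CPM after 20E and at 12.9, 20.5, 19.2 and 13.9 CPM after EtOH. When each library was left out in turn, AGAP009823 was called in 8 of 8 fits, AGAP007619 in 2, and the other 6 in 1 or 0. A total of 36 members had an unadjusted p under 0.05 in this fit, as did 557 of all genes tested.

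The median log2 fold change of the members was 0.998 without the block and 1.04 with it. Single estimates moved more, at most from 1.39 to 1.15 for AGAP000100 and from 0.96 to 1.18 for AGAP003542. The choice by bounded ratios within pairs favors a small standard error with the block, and the 2 fits were compared in this for the members only. The standard error without the block was a median of 2.62 times that with the block, from 1.24 to 12.8 times. The extreme was AGAP006769, at 1.55 ± 1.31 (SE) without the block and 1.56 ± 0.10 (SE) with it, with adjusted p-values by edgeR of 0.999 and 1.85e-05. In all, 10 members had an adjusted p above 0.9 without the block and were called with it, the largest adjusted p with the block being 0.0172 for AGAP001377. Without both libraries of replicate 1, 2, 3 or 4, the counts of called members were 5, 1, 1 and 0 without the block and 50, 50, 49 and 50 with it. Of the 8192, 8143, 8180 and 8159 genes tested, 48, 11, 13 and 4 were called higher without the block. With it, 587, 580, 398 and 370 were called higher. Members were chosen for a bounded ratio in each pair, so their counts with the block follow largely from the choice.

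**Figure D4:**
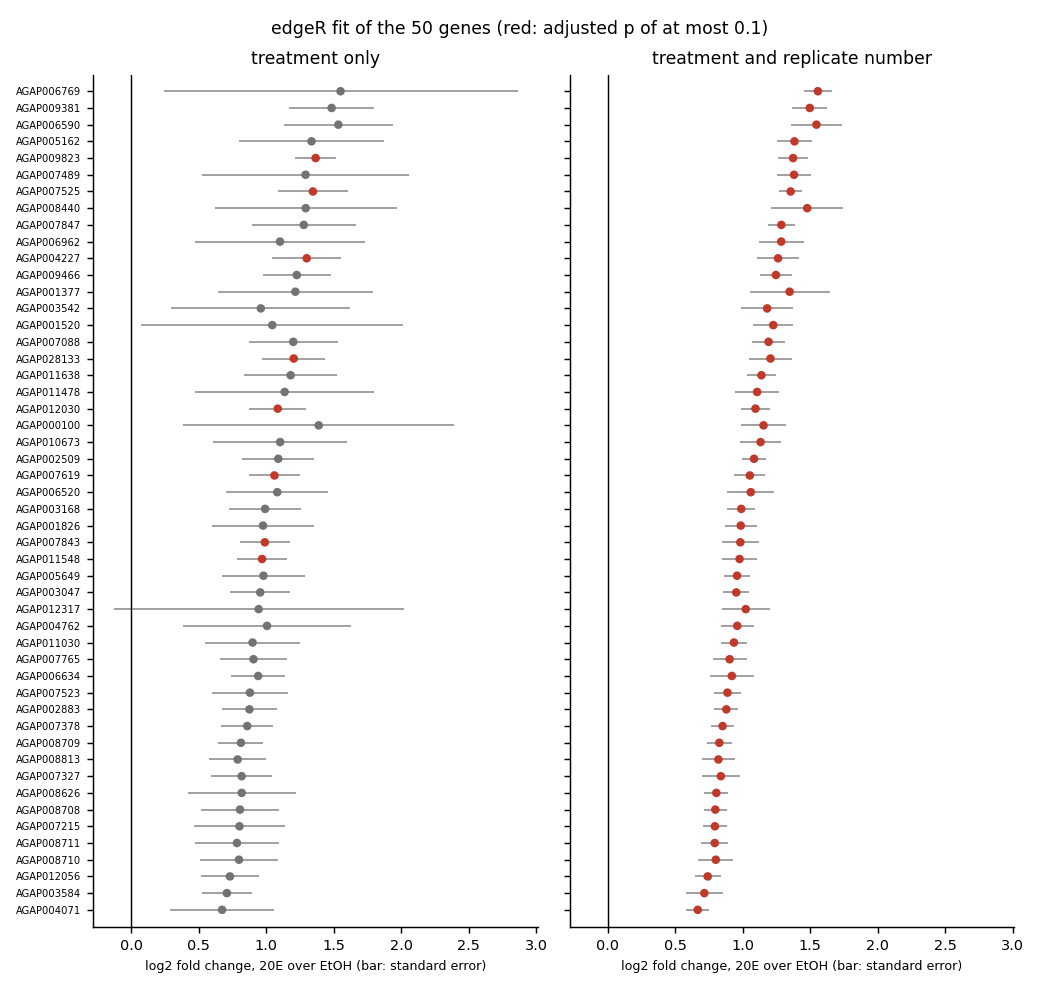
Log2 fold change of 20E over EtOH for the 50 genes in the edgeR fits with treatment only (left) and with treatment and replicate number (right), bars showing the standard error and red points an adjusted p of at most 0.1. The bars are shorter in the right panel, a few points such as AGAP000100 (1.39 and 1.15) move between the panels, and the number of red points goes from 8 to 50.

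Members lay on all major chromosome arms, with 16 on 2L, 11 on 2R, 9 on 3L, 13 on 3R and 1 on X. The share on X was 2%, against 9.29% of all measured genes and 11.3% of the 53 genes with the mirrored fall. That on 2L was 32%, against 22.0% of all measured genes and 28.3% of the mirrored fall. Members were long in the deposited table, where a gene's length is its span from start to end. Their median span was 6091.5 bp, against 2433 bp for all measured genes and 3196 bp for the mirrored fall, and 13 of them (26%) spanned more than 20000 bp, against 7.34% of all measured genes and 5.66% of the mirrored fall. Restricted to the 44 members with at least 30 counts in every library, the median was 6318.5 bp. The part of span in which genes passed the limits was not tested.

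The only members next to each other among measured genes were 4 on the minus strand of 3R. They were noticed after their positions were seen, and none of them has a name here. AGAP008708 (15829302 to 15830494) was at 390, 258, 243 and 427 CPM after 20E and at 231, 160, 125 and 216 CPM after EtOH. AGAP008709 (15831374 to 15833822) was at 97.9, 129, 105 and 113 CPM after 20E and at 54.8, 83.3, 46.2 and 61.9 CPM after EtOH. In both genes the groups did not overlap.

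AGAP008710 (15834711 to 15840880) was at 19.8, 36.4, 18.5 and 27.4 CPM after 20E and at 11.6, 22.7, 9.85 and 13.2 CPM after EtOH. AGAP008711 (15872602 to 15925670) was at 60.9, 109, 53.0 and 48.1 CPM after 20E and at 37.6, 64.5, 23.4 and 28.9 CPM after EtOH. These genes overlapped between groups, since replicate 2 was the highest library in both treatments. The gaps along the run were 879, 888 and 31721 bp.

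The ratios in pairs 1 to 4 were 0.75, 0.69, 0.96 and 0.98 for AGAP008708, 0.83, 0.63, 1.18 and 0.86 for AGAP008709, 0.74, 0.67, 0.88 and 1.03 for AGAP008710 and 0.69, 0.76, 1.16 and 0.72 for AGAP008711. On one side, AGAP008706 and AGAP008707 had ratios of 0.05 to 0.50 and of 0.08 to 0.64. On the other side, AGAP008712 had ratios of 0.09, 1.11, 2.33 and 1.46, and AGAP008715 had ratios of -0.12 to 0.30. That the flanking genes have ratios outside the limits follows from the rule.

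**Figure D5:**
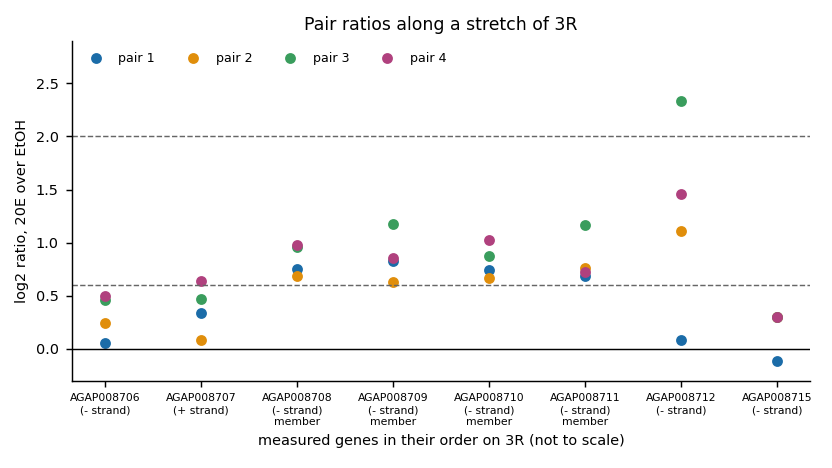
Log2 ratio of 20E to EtOH in the 4 pairs (points) for 8 measured genes in their order along 3R, not drawn to scale, with dashed lines at 0.6 and 2.0. The 4 members in the middle lie between 0.63 and 1.18, and AGAP008712 beside them runs from 0.09 to 2.33.

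Elsewhere, members lay close together but with other measured genes between them. On 3L, AGAP028133 and mRpL21 (AGAP012030) were separated by AGAP012028, with ratios of 0.43 to 0.70, and AGAP012029, with ratios of 0.39 to 0.70. On 2L, AGAP007523 and coronin (AGAP007525) were separated by AGAP007524, whose ratios were -0.33 to 0.07. On 3R, the acyltransferase AGAP007843 and the kinase AGAP007847 were separated by AGAP007844, with ratios of -0.46 to 0.30, AGAP007845, with ratios of -0.15 to 0.19, and AGAP013759, with ratios of -0.28 to 0.26. The genes between the members had lower ratios than the members at all 3 places, as positive values on 3L and on either side of 0 on 2L and 3R. Here too, that genes which are not members have ratios outside the limits follows from the rule.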

How the data were processed

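RNA from 4 cultures of Sua 4.0 cells treated with 20E and 4 given EtOH was sequenced as stranded mRNA libraries. The authors mapped the reads with STAR 2.5.2b and deposited raw featureCounts counts per gene for AgamP4, without normalization. The listed length equals the gene span for 100% of genes, and the strand setting of the counting is not given in the sources used here. Groups and replicate numbers come from the sample titles. No library was close enough to another of its group to be a copy (chi-square per degree of freedom of at least 65.3).

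The members and lists were chosen with earlier results of these data known. CPM were taken over nuclear genes (pseudocount 0.5 CPM for ratios). Tests used edgeR 4.0.16 in R 4.3.3 with TMM and filterByExpr (minimum count 10, minimum total 15), treatment as the only term, all 8 libraries and Benjamini-Hochberg adjustment over 8180 genes. Both fits were tested on simulated data. A replicate effect was built into those data, so they cannot decide between the fits. Deviations from group means correlated at 0.835, 0.728, 0.804 and 0.646 between libraries of the same number and at most at 0.0854 between others, so libraries of the same number were treated as pairs. The labels and the paper do not say which libraries were treated together, and each number is taken here to mark an experiment. With the block the biological coefficient of variation went from 0.400 to 0.137. Alternatives were DESeq2 1.42.0, limma 3.58.1 (voom), RLE factors, other filters and limits, and leaving out libraries. The genes named are the 8 members with the highest lowest ratio, the 8 with the highest mean CPM, those in the study's list, and the 3 nearest to each limit on either side, while the others are said to be chosen after their values were seen. Names come from the study's list, since the gene table used for names held none of these identifiers.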

Additional observations from a re-analysis of the deposited data

Results flagged for a closer look

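For the 25 members named by rule, the highest and the lowest of the 4 libraries of each treatment were compared with the rest, 50 groups in all, by whether the gap to the nearest library exceeded Dixon's 95% critical value as a share of the whole range. In independent groups of normal values, chance alone gives about 1 such group in 20, and 6 of the 50 were found. The values here were CPM without a log scale, and the 2 groups of a gene share replicate numbers, so the 6 cannot be weighed against that share. In AGAP006769, replicate 1 stood apart in both treatments, at 472 CPM after 20E against 19.4 to 51.3 CPM in the others and at 164 CPM after EtOH against 7.28 to 13.5 CPM. In AGAP001826, 20E replicate 1 stood apart at 5344 CPM against 2426 to 2737 CPM. EtOH replicate 2 stood apart in AGAP007523, at 665 CPM against 291 to 327 CPM, and in the ARF-like AGAP004227, at 258 CPM against 149 to 167 CPM. In coronin (AGAP007525), EtOH replicate 3 was low, at 30.9 CPM against 56.1 to 59.7 CPM.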

How the results depend on the processing

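The number of members called by edgeR without the block (8) was 50 with the replicate block, 25 with DESeq2, 5 without the expression filter and 1 at an adjusted p of at most 0.05. It was 1 to 3 without single libraries and 0 to 5 without the 2 libraries of a pair, the 0 being without replicate 4 (28 members at an unadjusted p under 0.05). With the block and a pair left out, 49 to 50 were called, which follows largely from the choice on pair ratios. Over all genes the count of calls (65) was 1427 with the replicate block, 195 with DESeq2 and 32 at 0.05, 16 to 65 without single libraries, 4 to 77 without a pair, and 1305, 1224, 844 and 870 with the block and pair 1, 2, 3 or 4 left out. Limma-voom (7 members), RLE factors (8), the 1 CPM filter (8) and leaving out mitochondrial genes (9) stayed within 1.5 times the count. With the 5 genes still set aside, the limits gave 33 members with a lower bound of 0.7, 105 with no upper bound and 64 to 96 on 3 pairs. TMM factors gave 48, of which 43 were among the 50, and mitochondrial genes in the totals gave 68 with all 50 kept. Subtracting each pair's median, which like the fits without a pair was added after the data were seen, gave 46 with 42 shared. The medians in the pair left out and the median log2 fold change of the members kept their sign under every setting run for them. AGAP006769 (1.55) turned to -0.59 without 20E replicate 1 and was 3.75 without EtOH replicate 1, settings that leave the other high library of its pair in the fit. The block changed no sign of a named member. No promoter could be searched for motifs, since no sequence was used here.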
